A study of Mus musculus with 54 samples.

Results

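The genes described here are 30 genes of cholesterol synthesis, uptake, transport and sterol sensing, taken by symbol from a fixed list out of the 26264 genes counted in mouse testis and ovary. All 30 were present in the count tables of both tissues and all 30 passed the filter on low counts in every comparison. They fall into 4 steps: 8 genes of the mevalonate part of the pathway, 11 genes that carry squalene to the finished sterol, 6 genes of uptake and transport, and 5 genes of the sterol-sensing machinery.

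Pregnant mice and their young received a mixture of ibuprofen, 2-hydroxyibuprofen, diclofenac and the synthetic oestrogen ethinyl-estradiol in drinking water from 8.5 days post coitum until the gonads were taken, at 35 days after birth for testes and 30 days for ovaries. F1 controls had 0.001% ethanol in the water. Dose 1 held the oestrogen at 2.25 ng/L, diclofenac at 22.5 ng/L, ibuprofen at 11.3 ng/L and its hydroxylated form at 90 ng/L, and dose 2 held 45, 112, 113 and 225 ng/L of the same agents. F2 labels name only the groups of the parents: a control cross, crosses with an exposed mother (maternal dose 1 and dose 2) or an exposed father (paternal dose 1 and dose 2), and a cross in which both parents came from the dose 2 group (biparental dose 2). The labels give no strain for any group and no dose for the F2 animals themselves. Each of the 18 groups had 3 libraries, 54 in all, and the labels do not say whether the 3 came from separate animals or litters, so p-values measure only the spread between these libraries.

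Cholesterol is built from acetyl-CoA through mevalonate and squalene, and cells can also take it up from lipoproteins. When sterol is scarce, SCAP escorts the SREBP transcription factors to the Golgi, where they are cut and then switch on the genes of synthesis and uptake, while the INSIG proteins hold SCAP back when sterol is plentiful. In the gonads cholesterol is the starting material of steroid hormones in Leydig, theca and luteal cells, and late sterol intermediates accumulate in meiotic germ cells.

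SREBP binds a sterol regulatory element, searched here as TCACNCCAC, and often acts with the factor NF-Y at a CCAAT box. Both strands of 300-base windows from RefSeq on build GRCm38.p6, most of each lying before an annotated start, were searched, and windows were found for 24 of the 30 genes (32 windows, since some genes have several starts). The element was in 1 of the 32 windows, that of Hmgcs1, where it begins 137 bases before the start, and in 1.24% of all 32851 windows. CCAAT was in 22 of the 32 windows (68.8%), against 37.4% of all windows, and the GC box GGGCGG in 26 (81.2%), against 35.7%. These windows overlap where a gene has neighbouring starts, and a match describes the letters only. Only the pattern named was searched, so a window without it does not show that the gene lacks an element. Fdps, Fdft1, Scarb1, Npc1, Stard4 and Sqle had no window. The windows printed are those of Hmgcs1, Msmo1 and Scap. Hmgcs1 holds the element, and Msmo1 correlated most closely with Hmgcs1 over all 18 F2 ovary libraries. Scap had the lowest p between the tissues, and its 2 windows, the first of them printed, hold neither the element nor CCAAT. Capitals mark the sterol regulatory element and CCAAT, which reads ATTGG where it lies on the other strand.
Hmgcs1, chr13:119690101-119690400, plus strand: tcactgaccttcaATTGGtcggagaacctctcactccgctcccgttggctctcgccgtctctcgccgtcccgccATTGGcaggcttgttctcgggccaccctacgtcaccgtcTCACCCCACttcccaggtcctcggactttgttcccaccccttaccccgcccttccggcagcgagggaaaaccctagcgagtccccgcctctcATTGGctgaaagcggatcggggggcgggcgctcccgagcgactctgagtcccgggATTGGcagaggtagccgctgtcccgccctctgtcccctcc
Msmo1, chr8:64733529-64733828, minus strand: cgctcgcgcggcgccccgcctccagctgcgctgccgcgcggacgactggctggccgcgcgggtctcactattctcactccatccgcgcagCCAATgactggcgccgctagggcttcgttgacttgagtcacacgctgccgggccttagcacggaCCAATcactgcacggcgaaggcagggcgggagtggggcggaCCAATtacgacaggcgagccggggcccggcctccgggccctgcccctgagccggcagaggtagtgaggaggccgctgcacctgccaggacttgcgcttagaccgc
Scap, chr9:110333038-110333337, plus strand: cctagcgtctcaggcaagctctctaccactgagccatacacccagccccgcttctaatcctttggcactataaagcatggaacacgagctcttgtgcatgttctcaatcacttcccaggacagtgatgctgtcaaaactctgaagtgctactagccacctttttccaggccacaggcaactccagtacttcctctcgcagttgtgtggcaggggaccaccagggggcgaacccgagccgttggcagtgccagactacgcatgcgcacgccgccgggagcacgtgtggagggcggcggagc
In the Hmgcs1 window the element TCACCCCAC lies between the second and the third of 4 CCAAT matches, and the Msmo1 window holds 3 CCAAT matches.

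Library totals, in kilocounts, ran from 31816 to 122397 in F1 testis, from 31554 to 48237 in F2 testis, from 36641 to 57383 in F1 ovary and from 37913 to 84721 in F2 ovary. Granulosa markers summed to 3609 to 7925 CPM (counts scaled to a common library size) in ovary and 99.9 to 249 in testis, and oocyte markers to 431 to 819 and 3.92 to 9.41. Spermatocyte markers summed to 956 to 1589 CPM in testis and 1.73 to 71.5 in ovary. The Sertoli and spermatogonia lists, which hold genes that ovary also expresses (Amh, Wt1 and Kit), went the other way, at 144 to 200 and 90.9 to 136 CPM in testis against 355 to 942 and 246 to 342 CPM in ovary. One library stood apart in a way that bears on the F1 ovary. Control A carried elongating-spermatid transcripts (Prm1, Prm2, Tnp1, Tnp2, Odf1 and Smcp) at a sum of 1015 CPM, against 9.44 to 75.9 CPM in the other 8 F1 ovary libraries and 0.0976 to 0.586 CPM in the 18 F2 ovary libraries. In F1 testis the same sum ran from 8726 to 29274 CPM, and both extremes were dose 2 libraries. The F1 comparisons between tissues, in ovary and of dose 2 in testis are given with and without these libraries.

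The largest differences among these genes lay between the tissues. In unexposed animals ovary had the higher level of most of them: 22 of 30 were lower and 4 higher in testis in the F1 controls, and 26 were lower and 4 higher in the F2 control cross (edgeR quasi-likelihood test, Benjamini-Hochberg adjusted p under 0.05, 12 libraries). Such calls were common among all genes, with 43.2% lower and 42.4% higher in testis in F1, and 42.4% lower and 44.5% higher in F2. The median log2 difference of the 30 genes, testis minus ovary, was -0.95 in F1 and -1.27 in F2, against -0.05 and 0.05 over all genes tested. The scaling bears on this: RLE size factors in place of TMM moved the median of all genes by 0.33 in F1 and 0.23 in F2, and the calls were then 18 lower and 6 higher in F1 (37.8% and 47.4% of all genes) and 23 lower and 4 higher in F2 (38.7% and 47.6%). The median of the 30 genes relative to that of all genes was -0.90 in F1 and -1.32 in F2 under either scaling. Scaling shifts all genes of a library alike, so this relative value is nearly fixed whichever scaling is used. Without ovary control A, 23 were lower and 4 higher in testis in F1 (41.7% and 42.4% of all genes), and the median was -1.03. In bulk tissue, fewer cells of a type and less RNA per cell cannot be told apart. All testes were taken at 35 days and all ovaries at 30 days, so tissue and age cannot be told apart either.

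The 4 genes higher in testis in both generations were the enzymes Fdft1, Sqle and Cyp51 and the sensor Insig2. Fdft1, squalene synthase, was at 418, 498 and 558 CPM in F1 control testis and at 96.5, 75.9 and 75.9 CPM in F1 control ovary. The log2 difference was 2.49 ± 0.18 (SE, adjusted p = 5.05e-07 by edgeR) in F1 and 2.13 ± 0.18 (adjusted p = 1.28e-06 by edgeR) in F2. Every testis library lay far above every ovary library, and the F2 control cross repeated this at 450, 485 and 472 CPM in testis against 110, 123 and 120 CPM in ovary. Sqle, squalene epoxidase, which adds oxygen to squalene, was at 127, 140 and 120 CPM in F1 testis and 39.9, 51.1 and 34.4 CPM in F1 ovary. In F2 Sqle was at 124, 130 and 128 CPM in testis against 66.7, 53.2 and 67.8 CPM in ovary. Its log2 difference was 1.56 ± 0.15 in F1 and 1.16 ± 0.15 in F2 (adjusted p = 3.63e-06 and 2.80e-05 by edgeR), and again the groups did not overlap. Cyp51, which demethylates lanosterol, was at 116, 124 and 99.1 CPM in F1 testis and 42.3, 55.1 and 60.1 CPM in F1 ovary. In the F2 control cross it was at 150.0, 105 and 111 CPM in testis and 81.6, 68.1 and 90.2 CPM in ovary. Its log2 difference was 1.05 ± 0.16 in F1 and 0.75 ± 0.16 in F2 (adjusted p = 0.000106 and 0.000959 by edgeR). Lss, the cyclase that acts between Sqle and Cyp51, went the other way, at -0.32 in F1, where it was not called, and -0.55 in F2 (adjusted p = 0.0283 by edgeR), a call that was lost under RLE. These 3 enzymes and Insig2 were higher in testis under RLE as well. Insig2, a SCAP-retaining protein like its paralogue Insig1, was at 68.8, 62.5 and 70.6 CPM in F1 testis and 30.5, 32.2 and 30.6 CPM in F1 ovary, and at 60.4, 67.0 and 65.5 CPM against 32.2, 31.9 and 28.9 CPM in F2. The groups did not overlap, and the log2 differences were 1.05 and 1.19. Insig1 had differences of -1.54 and -1.86, at 26.4, 24.9 and 20.2 CPM in F1 testis against 57.5, 75.8 and 65.9 CPM in F1 ovary. Without ovary control A the F1 log2 differences were 2.70 for Fdft1, 1.60 for Sqle, 0.98 for Cyp51, 1.11 for Insig2 and -1.56 for Insig1.

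All 6 genes of uptake and transport and 4 of the 5 sensing genes were lower in testis in both generations, also under RLE, and Soat1, Npc1 and Scap lay farthest from 0. Some synthesis genes lay nearly as far, with Mvd at -2.45 and Msmo1 at -2.27 in F2. In all, 6 of 8 mevalonate genes were lower in F1 and 8 in F2, and 6 and 8 of the 11 genes from squalene to sterol. Soat1, which esterifies cholesterol for storage, was at 68.6, 59.3 and 62.3 CPM in F1 testis and 661, 717 and 804 CPM in F1 ovary, and at 74.0, 68.9 and 83.6 CPM against 742, 511 and 653 CPM in F2. Its log2 difference was -3.58 ± 0.15 in F1 and -2.93 ± 0.14 in F2 (adjusted p = 1.60e-08 and 3.51e-08 by edgeR). Scap, the escort of SREBP, was at 43.2, 42.8 and 39.9 CPM in F1 testis and 273, 371 and 326 CPM in F1 ovary, and at 35.2, 34.7 and 35.6 CPM against 371, 354 and 363 CPM in F2. These groups stood apart in every library, with log2 differences of -3.00 ± 0.09 and -3.23 ± 0.10 (adjusted p = 5.22e-09 and 4.31e-09 by edgeR), the lowest p among the 30 genes in both generations. Npc1, which moves cholesterol out of late endosomes, was at 9.06, 10.9 and 8.05 CPM in F1 testis and 74.3, 103 and 90.4 CPM in F1 ovary, with a log2 difference of -3.31 ± 0.23 (adjusted p = 3.17e-07 by edgeR). In F2 it was at 10.1, 12.5 and 13.9 CPM against 69.0, 66.5 and 108 CPM, a difference of -2.61. Without ovary control A the F1 differences of Soat1, Scap and Npc1 were -3.58, -3.05 and -3.36. Abca1, the cholesterol exporter, differed by -2.39 in F1 and -1.54 in F2, and Srebf1, one of the SREBP genes, by -2.03 and -2.32. Scarb1, the HDL receptor, was at 142, 152 and 140 CPM in F1 testis and 195, 211 and 469 CPM in F1 ovary, a difference of -1.05 ± 0.26, and at 175, 147 and 156 CPM against 581, 467 and 482 CPM in F2, a difference of -1.54 ± 0.26 on the log2 scale. Srebf2, the SREBP gene most tied to sterol synthesis, was at 59.5, 61 and 47.3 CPM in F1 testis and 118, 153 and 139 CPM in F1 ovary, a log2 difference of -1.35 ± 0.15. Both groups were apart in every library. Hmgcs1, which makes HMG-CoA at the start of the mevalonate part, differed least of these, at 115, 157 and 85.3 CPM in F1 testis against 185, 214 and 183 CPM in F1 ovary (-0.78 ± 0.23 on the log2 scale, adjusted p = 0.00822 by edgeR), and with RLE it was not called in either generation (adjusted p = 0.0835 and 0.0680).

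In F1 the 4 genes not called were Idi1 (0.69 ± 0.36), Fdps (0.17 ± 0.13), Lss (-0.32 ± 0.21) and Dhcr7 (-0.52 ± 0.23), with adjusted p of 0.10, 0.239, 0.166 and 0.0509 by edgeR. Idi1, an isomerase of the mevalonate part, was close to the floor of the counting in both tissues (6 to 62 counts and 0.105 to 1.13 CPM over the 54 libraries), and its log2 values are therefore uncertain. In F2 all 30 were called, with Idi1 at -0.98 and Fdps at -0.77, so these 2 estimates had opposite signs in the generations. With RLE both were called higher in testis in F1, and in F2 Idi1, Lss and Hmgcs1 lost their calls. Without ovary control A, Dhcr7 was called lower in F1 as well (-0.57, adjusted p = 0.0355 by edgeR). Per kilobase of annotated exon (GENCODE M21 lengths, used only as lengths), Fdft1 was the most abundant of the 30 in testis, at 116 ± 16.7 CPM per kb (SD, n = 3) in F1 controls. Soat1 was the most abundant in ovary, at 74.3 ± 7.33 CPM per kb in the same generation, ahead of Scap at 43.5 ± 6.58, Hmgcs1 at 42.3 ± 3.81 and Abca1 at 34.7 ± 7.61, and those last 3 do not differ beyond their spread.

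**Figure D1:**
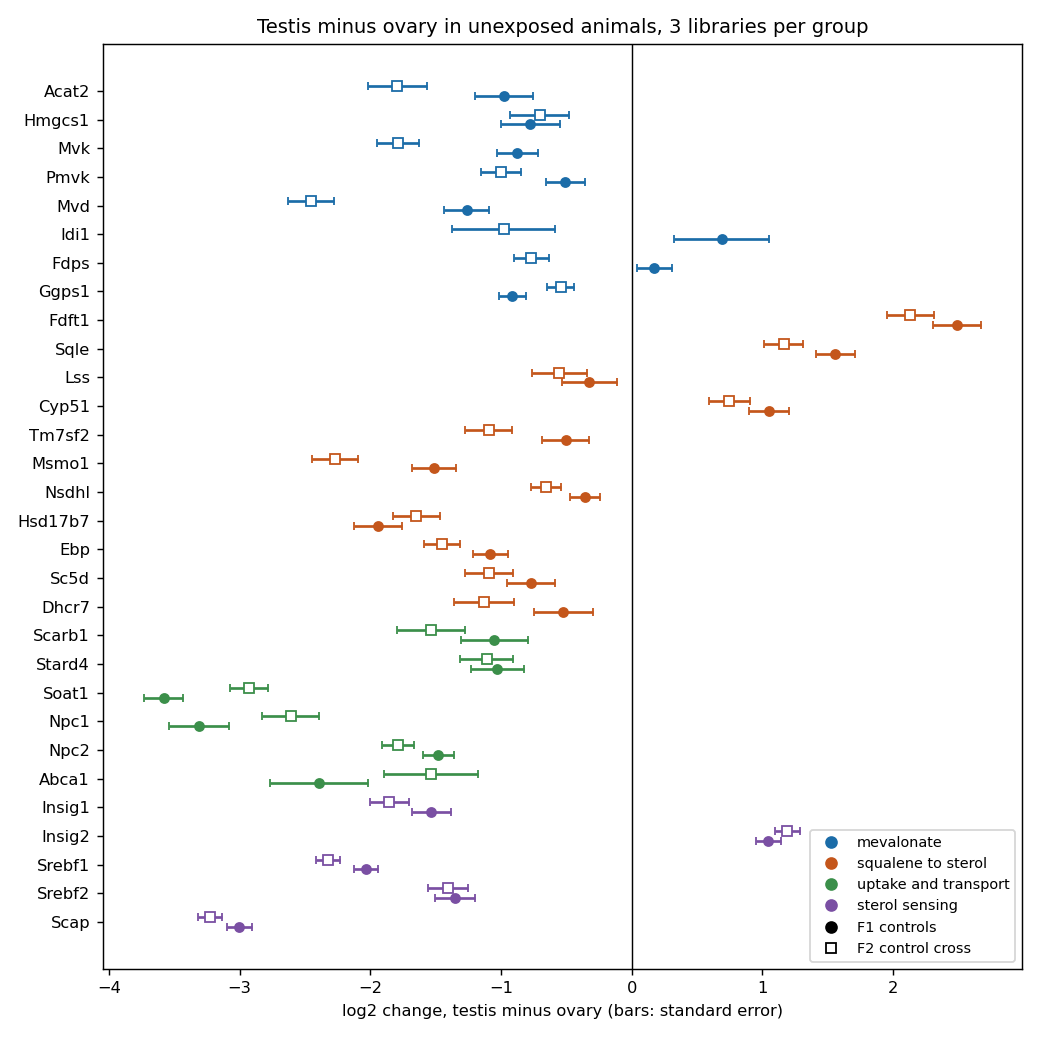
Log2 difference between testis and ovary (x axis, testis minus ovary) for each of the 30 cholesterol genes (y axis) in F1 controls (filled circles) and the F2 control cross (open squares), with the standard error as bars and colours for the 4 pathway steps. Fdft1, Sqle, Cyp51 and Insig2 lie right of 0 in both generations, and Soat1, Npc1 and Scap lie farthest left.

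No gene of the 30 passed the test in any of the 20 exposure comparisons (14 against a control and 6 between doses or between crosses of 1 dose). Few of all genes did. In ovary the share of all genes called by edgeR was 0% in the 3 F1 comparisons and in 5 of the 7 F2 comparisons, and 0.00575% for paternal dose 1 against the control cross and for maternal against paternal dose 1. In F1 testis it was 0.021% for dose 1 and 0.00526% for dose 2 against controls, and 0.0263% for dose 2 against dose 1. In F2 testis it was 0.0103%, 0.372%, 0.201%, 0.00516% and 0.0155% for maternal dose 1, maternal dose 2, paternal dose 1, paternal dose 2 and biparental dose 2 against the control cross, and 0.0413% and 0.119% for maternal against paternal dose 1 and dose 2. DESeq2 called none of the 30 in 19 of the 20 comparisons and 2 in the F2 ovary biparental cross. The counts at an unadjusted p under 0.05, given below for each comparison beside the share of all genes with such a p, are descriptions only.

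In F2 ovary most of the 30 genes had lower estimates than the control cross in all 5 crosses. The 30 genes had log2 changes above 0 in 6 cases for maternal dose 1, 2 for maternal dose 2, 2 for paternal dose 1, 1 for paternal dose 2 and 4 for biparental dose 2, against 49.1%, 48.8%, 47.8%, 49.4% and 54.8% of all genes. Medians were -0.12, -0.25, -0.17, -0.32 and -0.20 in the same order, where the median of all genes lay between -0.01 and 0.03. Genes lower at an unadjusted p under 0.05 numbered 6, 10, 3, 14 and 11 of 30, and none were higher, against 13.1%, 6%, 4.97%, 3.82% and 9% of all genes in either direction. In 2, 9, 5, 12 and 11 genes all 3 exposed libraries lay below all 3 of the control cross, against 5.05%, 6.17%, 6.06%, 5.27% and 9.75% of all genes. The 5 comparisons share the same 3 control-cross libraries, so they are not separate observations. Leaving out each library in turn kept all 5 medians below 0 (highest -0.07, for maternal dose 1). The counts at an unadjusted p ran from 2 to 7, 6 to 13, 1 to 5, 8 to 17 and 6 to 13 in the same order, with lows without control cross A, control cross C, control cross C, paternal dose 2 B and biparental dose 2 C. That control cross was the highest F2 ovary group on the mean log2 CPM of the 30 genes, at 6.08, 5.89 and 6.18 by library, while F1 control ovaries were at 5.44, 5.82 and 5.67.

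Dhcr7, the last enzyme of the pathway, had the lowest p of the 30 genes in 3 of the 5 comparisons. It was at 95.4, 75.1 and 96.1 CPM in the control cross, at 66.8, 59.3 and 65.0 CPM in paternal dose 2 and at 64.3, 58.7 and 60.5 CPM in biparental dose 2. Neither dose 2 group reached the lowest control library, and the log2 changes were -0.47 ± 0.11 (unadjusted p = 0.000396, adjusted p = 0.622 by edgeR) and -0.48 ± 0.11 (unadjusted p = 0.000316, adjusted p = 0.462 by edgeR). Paternal dose 1, at 70.3, 71.5 and 71.0 CPM, was also below every control library. Scarb1 had the lowest p in maternal dose 2, at 322, 393 and 291 CPM against 581, 467 and 482 CPM in the control cross (-0.60 ± 0.16 on the log2 scale, adjusted p = 0.605 by edgeR). Msmo1, the C4-methylsterol oxidase, had the lowest p in maternal dose 1, at 106, 118 and 79.8 CPM against 140, 133 and 159 CPM (-0.51 ± 0.17 on the log2 scale, adjusted p = 0.353 by edgeR). All 3 genes lay below the control cross in every library of the group named. They were picked for the lowest p in those same groups, so this is not a separate result. Sqle, at 49.7, 42.4 and 43.5 CPM in paternal dose 2 against 66.7, 53.2 and 67.8 CPM, differed by -0.46 ± 0.14 (adjusted p = 0.962 by edgeR). Hmgcs1 was at 181, 232 and 243 CPM in the control cross. It ran from 114 to 271 CPM in maternal dose 1, 173 to 188 in maternal dose 2, 223 to 237 in paternal dose 1, 131 to 223 in paternal dose 2 and 153 to 215 in biparental dose 2. Every cross overlapped the control cross, and the log2 changes were -0.27, -0.29, 0.078, -0.40 and -0.23 with adjusted p from 0.596 to 1.00 by edgeR.

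**Figure D2:**
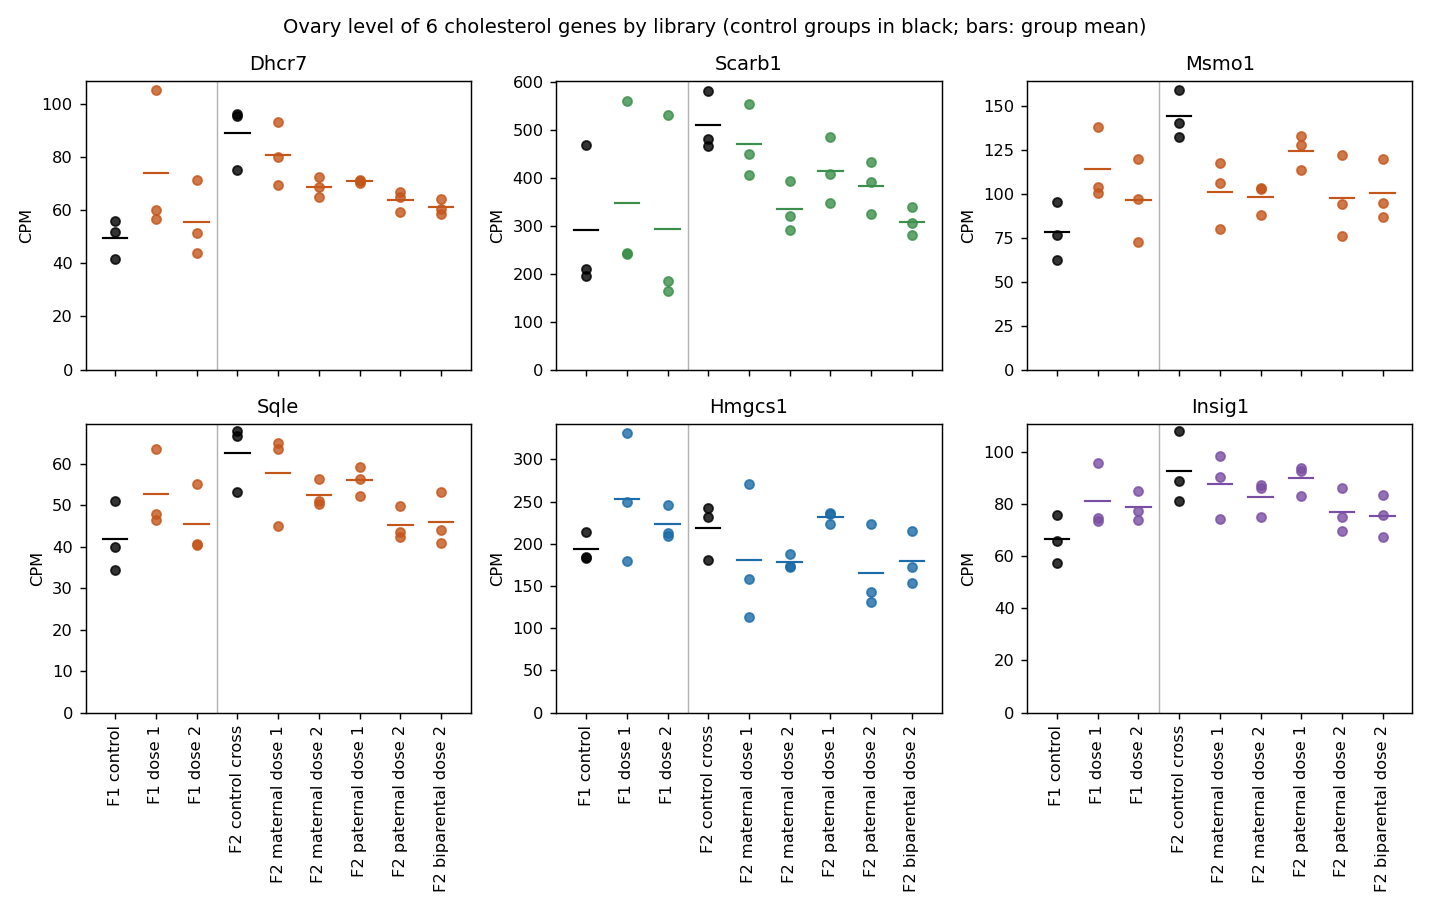
CPM (y axis, from 0) of Dhcr7, Scarb1, Msmo1, Sqle, Hmgcs1 and Insig1 in each ovary library (points) with the group mean (bar), for the 3 F1 and 6 F2 groups on the x axis and control groups in black. Dhcr7 in the F2 control cross lies between 75.1 and 96.1 CPM, above all 9 libraries of paternal dose 1, paternal dose 2 and biparental dose 2. These are the crosses in which Dhcr7 had the lowest p of the cholesterol genes.

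Theca and interstitial markers as a sum were higher in the F2 control cross. Other marker lists overlapped, that of Leydig markers only through 1 library. The sum of theca and interstitial markers (Cyp17a1, Insl3, Lhcgr, Star and Cyp11a1, none of them at 0 in any ovary library) was 3121 to 3413 CPM in the F2 control cross and 997 to 2910 CPM in the 15 libraries of the other crosses, so the groups do not overlap. In the 15 libraries paternal dose 2 B had the highest sum, 2910 CPM, and the lowest mean log2 CPM of the 30 genes, 5.63. Maternal dose 1 B had a sum of 1518 CPM and the highest such mean, 6.00. These 2 libraries are extremes picked from the 15. By group, the control cross had both the highest sums and the highest F2 ovary mean of the 30 genes, 6.05. Other lists overlapped between the control cross and the other crosses. Luteal markers summed to 168 to 407 and 55.6 to 318 CPM, and granulosa markers to 5962 to 7224 and 4919 to 7925 CPM. Leydig markers summed to 1289 to 1533 and 303 to 1398 CPM. They overlapped only through paternal dose 2 B, and the next highest library, maternal dose 1 A, was at 1004 CPM. The part of these markers in the result was not tested. Fatty acid synthesis genes, another set driven by SREBP, had medians of -0.08, -0.27, -0.16, -0.24 and -0.38 in the 5 crosses in the order above, with 5, 1, 3, 2 and 2 of 12 genes above 0 and none called. The 13 genes of steroid hormone synthesis had medians of -0.03, -0.19, -0.17, -0.18 and 0.05, also with none called.

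In F1 ovary dose 1 the sign was the opposite. Changes were above 0 in 27 of the 30 genes, against 49.5% of all genes, with a median of 0.27 against -0.0017 over all genes, and 4 genes were higher at an unadjusted p under 0.05 (8.33% of all genes in either direction). Fdps, which makes farnesyl diphosphate, was at 108, 124 and 99.7 CPM in dose 1 and 62, 97.7 and 82.9 CPM in controls (0.41 ± 0.15 on the log2 scale, unadjusted p = 0.0254, adjusted p = 0.550 by edgeR). The groups do not overlap, as in 6 of the 30 genes and 7.10% of all genes in this direction. The other 3 were Msmo1 (0.51), Acat2 (0.36) and Nsdhl (0.31). Without control A, the library with spermatid transcripts, the median was 0.17 and none of the 30 genes had an unadjusted p under 0.05, and without control B 11 were higher, so this count rests on single control libraries. At dose 2 the median was 0.10, with 24 genes above 0 (45% of all genes) and none at an unadjusted p under 0.05 (3.75% of all genes). Without control A that median was 0.04, with 16 genes above 0 (49.8% of all genes). Insig1 had the lowest p there, at 85.1, 73.8 and 77.2 CPM against 57.5, 75.8 and 65.9 CPM in controls, groups that overlap (adjusted p = 0.814 by edgeR). Theca and interstitial markers summed to 1823 to 2684 CPM at dose 1 and 845 to 2485 CPM in controls, and their part in the result was not tested.

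In F2 testis the biparental dose 2 cross was the group with the most of the 30 genes above the control cross. There 24 had log2 changes above 0 (50% of all genes), with a median of 0.13 against 2.8e-05 over all genes, and 9 were higher and none lower at an unadjusted p under 0.05, against 7.02% of all genes in either direction. In 8 genes the groups did not overlap and the cross was higher, against 6.49% of all genes. Without control cross B only 2 genes had such a p. Ebp, which shifts a double bond in the sterol ring, was at 12.2, 11.7 and 12.0 CPM against 9.67, 9.48 and 10.3 CPM in the control cross (0.28 ± 0.11 on the log2 scale, adjusted p = 0.621 by edgeR). Every library of the cross was above every control. Sc5d, the sterol C5 desaturase, was at 24.0, 23.6 and 26.8 CPM against 23.1, 18.4 and 17.7 CPM (0.32 ± 0.15 on the log2 scale), again with no overlap. Idi1 had the lowest p, at 0.653, 1.13 and 0.475 CPM against 0.210, 0.241 and 0.324 CPM, but rests on few counts (adjusted p = 0.495 by edgeR). The remaining genes with an unadjusted p under 0.05 were Msmo1 (0.35), Hmgcs1 (0.38), Hsd17b7 (0.35), Dhcr7 (0.33), Nsdhl (0.21) and Lss (0.22). Theca and interstitial markers, which Leydig cells also express, summed to 1146 to 1235 CPM in this cross. In the control cross their sum was 809 to 1104 CPM. The list of Leydig markers overlapped, at 879, 977 and 941 CPM against 895, 635 and 717 CPM in the control cross. The part of these markers in the result was not tested.

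In the other testis comparisons with a control few genes had an unadjusted p under 0.05: 1 in F1 dose 1 (lower), 2 in F1 dose 2 (higher), 0 in maternal dose 1, 2 in maternal dose 2 (higher), 3 in paternal dose 1 (2 higher and 1 lower) and 0 in paternal dose 2. The shares of all genes were 3.18%, 1.93%, 6.54%, 15.7%, 12.5% and 5.02%. Idi1, with its few counts, had the lowest p in F1 dose 1, at 0.364, 0.328 and 0.511 CPM against 0.895, 0.652 and 0.774 CPM. It also had the lowest p in maternal dose 2, at 0.440, 0.626 and 0.678 CPM, and in paternal dose 2, at 0.840, 0.316 and 0.410 CPM, where the control cross was at 0.210, 0.241 and 0.324 CPM. In paternal dose 2 the groups overlap, and in the other 2 they do not. In F1 dose 2 that was Mvd (7.89, 7.80 and 7.31 CPM against 5.37, 6.32 and 6.45 CPM in controls, 0.37 ± 0.14 on the log2 scale, unadjusted p = 0.0314, adjusted p = 0.982 by edgeR). Mvd makes isopentenyl diphosphate, and its 3 dose 2 libraries were above all 3 controls. Without dose 2 libraries B and C together the log2 change of Mvd was 0.37 (unadjusted p = 0.0955 by edgeR), from a single dose 2 library whose spread is assumed to be that of the other groups. Against dose 1 rather than controls, the dose 2 median was 0.16 against 0.04 over all genes, and 4 genes were higher at an unadjusted p under 0.05 (3.31% of all genes). Insig1 had the lowest p, at 28.2, 30.0 and 32.2 CPM in dose 2 against 21.5, 18.7 and 24.8 CPM in dose 1 (0.53 ± 0.15 on the log2 scale, unadjusted p = 0.00715, adjusted p = 1.00 by edgeR). These groups do not overlap, as in 4 of the 30 genes and 1.82% of all genes in this direction. Without dose 2 libraries B and C the median against dose 1 was 0.22, 2 genes were higher and 1 lower at an unadjusted p under 0.05 (3.7% of all genes), and Insig1 was at 0.38 (unadjusted p = 0.0737 by edgeR). Fdft1 had the lowest p in F2 paternal dose 1, at 411, 471 and 367 CPM against 450, 485 and 472 CPM, groups that overlap (-0.18 ± 0.07 on the log2 scale, adjusted p = 0.286 by edgeR). Abca1 had the lowest p in F2 maternal dose 1, at 100.1, 99.5 and 78.0 CPM against 114, 93.6 and 124 CPM, groups that overlap (adjusted p = 0.790 by edgeR), where no gene of the 30 had an unadjusted p under 0.05. Between F2 ovaries of 1 dose, Npc1 had the lowest p for maternal against paternal dose 1, at 95.0, 97.3 and 99.4 CPM against 69.2, 71.5 and 73.1 CPM (0.46 ± 0.15 on the log2 scale, adjusted p = 0.374 by edgeR). It was among 2 of the 30 genes higher at an unadjusted p under 0.05 (12.6% of all genes) and among 4 whose groups do not overlap in this direction (6.01% of all genes). The related genes were 12 of fatty acid synthesis, 13 of steroid hormone synthesis, 23 of other sterol handling and 10 of the isoprenoid branch. Of these only Cyp46a1, the cholesterol 24-hydroxylase, was called in any of the 20 exposure comparisons. It rose in F2 testis paternal dose 1 by 0.89 ± 0.15 on the log2 scale (adjusted p = 0.0165 by edgeR, where 0.201% of all genes passed). Cyp46a1 was not followed in the alternative fits.

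**Figure D3:**
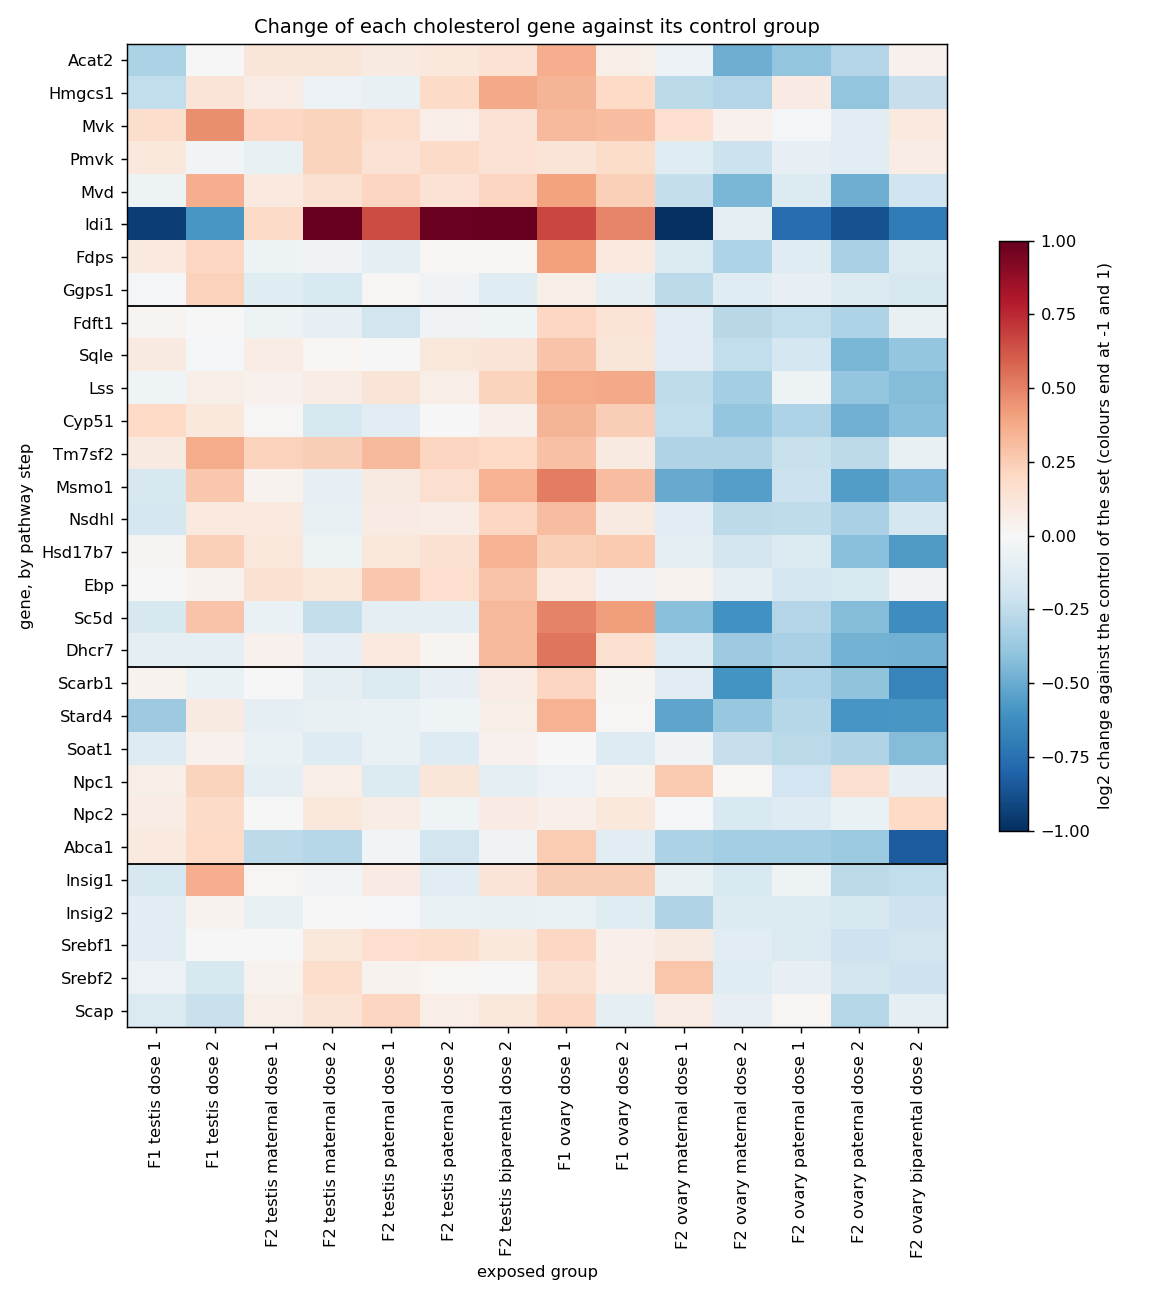
Log2 change of each of the 30 genes (rows, grouped by pathway step) in each of 14 comparisons with a control (columns), with blue for lower and red for higher and colours ending at -1 and 1. The F2 ovary columns are mostly blue and the F1 ovary dose 1 column mostly red; no cell passed the test.

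**Figure D4:**
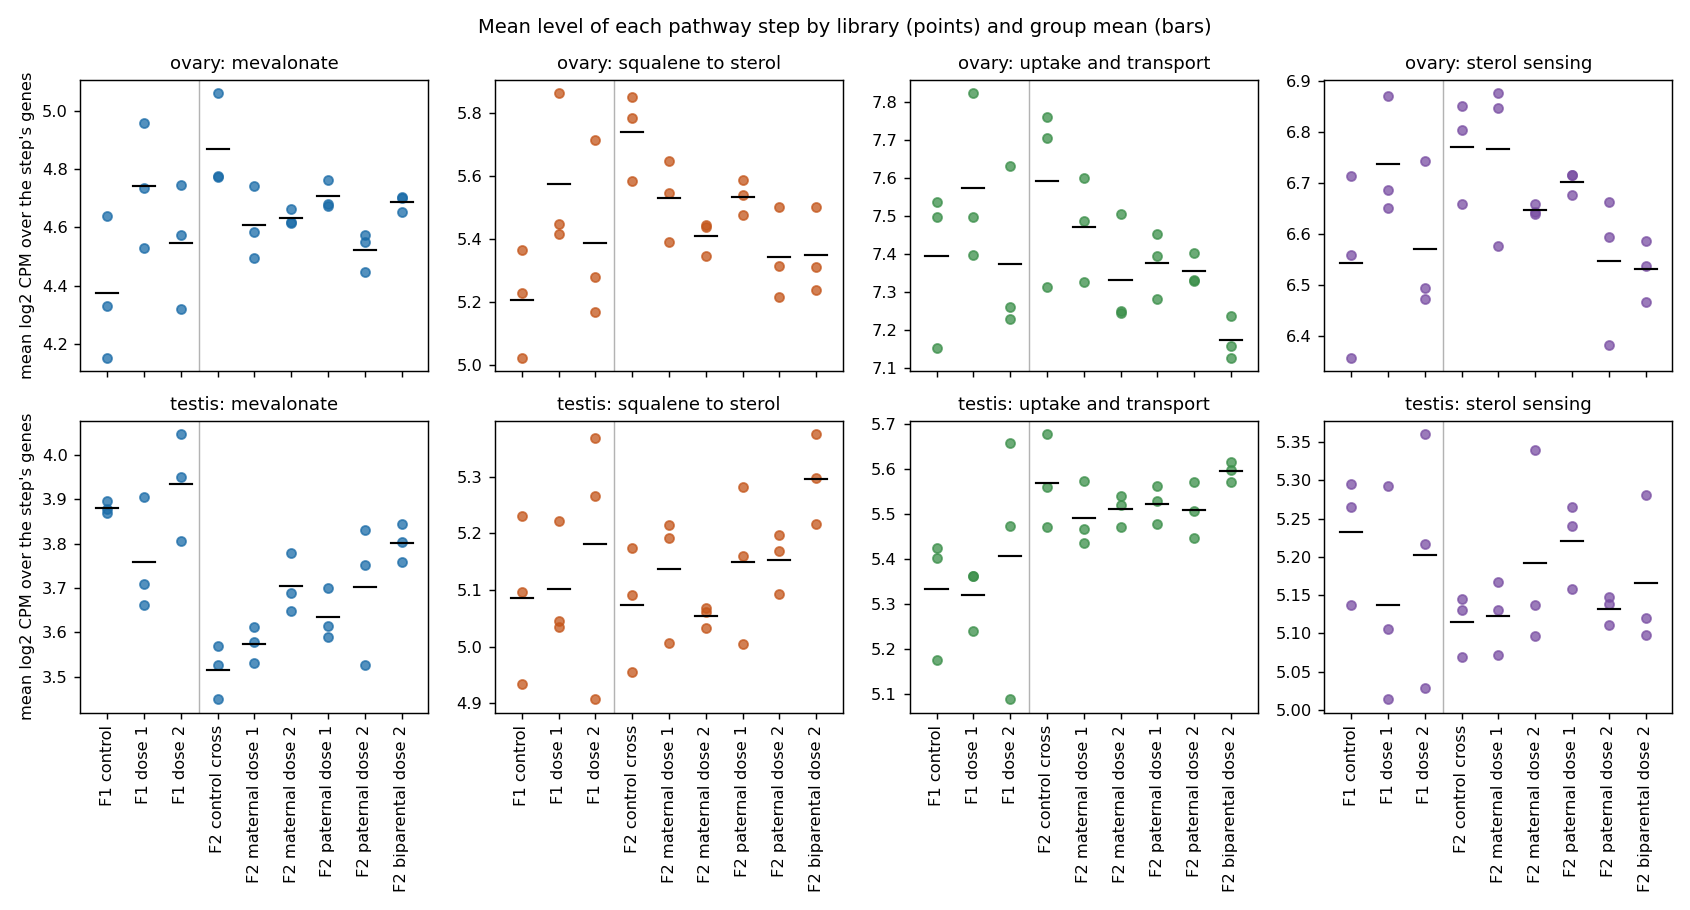
Mean log2 CPM over the genes of each pathway step (y axis) in each library (points) with group means (bars), for ovary (upper row) and testis (lower row), and the 3 F1 and 6 F2 groups on the x axis. In ovary the F2 control cross has the highest group mean of the 6 F2 groups for all 4 steps, hardly above maternal dose 1 for sterol sensing.

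Whether the tissues differed in their response was tested as the change in testis minus the change in ovary. In the 5 F2 crosses this difference was above 0 in 25, 29, 29, 29 and 29 of 30 genes (maternal dose 1 and 2, paternal dose 1 and 2, biparental dose 2), against 53.9%, 52.5%, 52.9%, 51% and 53.6% of all genes, and the 5 tests share both control crosses. Medians were 0.17, 0.25, 0.20, 0.35 and 0.43 in that order. Genes higher at an unadjusted p under 0.05 numbered 2, 7, 5, 14 and 17, against 9.04%, 7.95%, 6.74%, 4.35% and 9.2% of all genes in either direction. None passed after adjustment by edgeR, where 0% of all genes did in 4 of the 5 crosses and 0.00972% in biparental dose 2. Scarb1 came closest, with 0.80 ± 0.18 in biparental dose 2 (adjusted p = 0.144 by edgeR). With DESeq2 in place of edgeR, 4 of the 30 passed in that cross, namely Scarb1 (0.75), Dhcr7 (0.81), Msmo1 (0.82) and Sc5d (0.95), with adjusted p between 0.0380 and 0.0473, against 0.371% of all genes. Dhcr7 and Scarb1 also passed with DESeq2 in the ovary of that cross itself (-0.49 and -0.68 on the log2 scale, adjusted p = 0.0246 and 0.0426), against 0.132% of all genes. In F1 dose 1 the difference was above 0 for 4 of 30 genes, against 61.6% of all genes, and the lowest p was that of Acat2, an acetyl-CoA acetyltransferase (-0.62 ± 0.20, adjusted p = 0.425 by edgeR, where 0.00492% of all genes passed). It was among 4 genes lower at an unadjusted p under 0.05 (11.4% of all genes), and without ovary control A there were 2 (3.18% of all genes), with Acat2 at -0.54 and 5 of the 30 genes above 0, against 48.5% of all genes. In F1 dose 2 no gene of the 30 had such a p (5.32% of all genes), and 15 had a difference above 0 (66.4% of all genes). That count was 19 without ovary control A (50.1% of all genes) and 25 without testis dose 2 libraries B and C (59.2% of all genes).

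Across the 18 F2 libraries of a tissue, levels were set against Hmgcs1 to see which members varied with it. In each tissue 29 genes were compared, and libraries of a group share their exposure. In ovary Msmo1 had Pearson r = 0.75 and Spearman rho = 0.73 (unadjusted permutation p = 0.00039 and 0.00095). Stard4, a carrier of sterol between membranes, had r = 0.70 and rho = 0.70 (unadjusted permutation p = 0.00094 and 0.0016). Only 0.069% and 0.184% of all genes had an r at least as high. With the 2 libraries farthest from the median of Hmgcs1 left out, maternal dose 1 B and C, r was 0.72 and 0.51. Fdps (0.81) and Mvd (0.75) then lay above both genes. With group means removed, r of Msmo1 and Stard4 was 0.69 and 0.66. In testis the highest r was 0.60, for Dhcr7 (rho = 0.62, unadjusted permutation p = 0.008 and 0.0079), as high as in 0.392% of all genes, 0.42 without the 2 libraries farthest from the median and 0.49 with group means removed. These are the highest of 29 values in each tissue, and their p-values are not adjusted for that choice. The median r of the 29 genes was 0.25 in ovary and 0.22 in testis, against -0.0088 and -0.0072 over all genes. Without the 2 farthest libraries, which in testis were both biparental dose 2, the medians of the 29 were 0.39 in ovary and 0.083 in testis, and with group means removed 0.18 and 0.10.

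**Figure D5:**
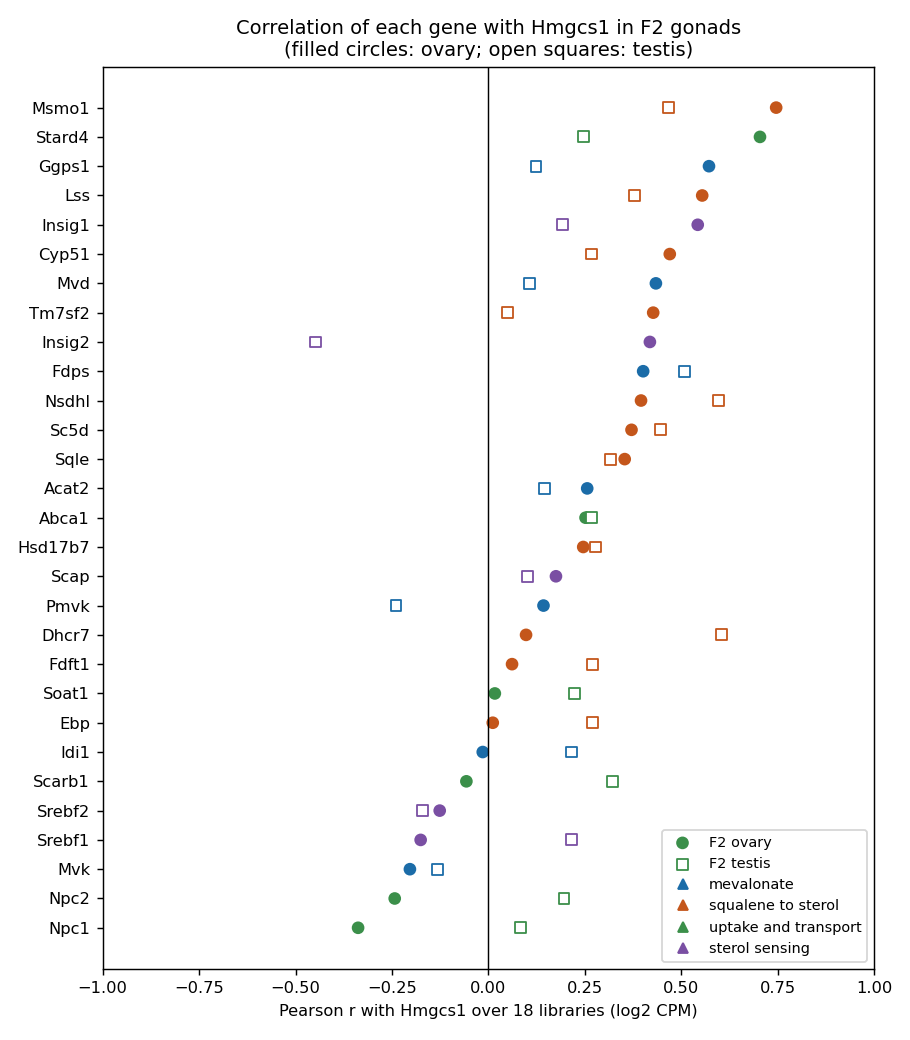
Pearson r with Hmgcs1 over 18 F2 libraries (x axis) for the other 29 genes (y axis, ordered by ovary r), in ovary (filled circles) and testis (open squares). Msmo1 and Stard4 in ovary, at 0.75 and 0.70, are the highest values.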

How the data were processed

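Per the labels' protocols, stranded libraries of polyadenylated RNA were made from whole gonads, and the authors deposited raw read counts per gene, which they did not normalize, in 1 table per tissue. The submitters' processing notes list, with build mm39, featureCounts 2.0.3 as well as TopHat2 2.1.1, Bowtie2 2.4.5 and SAMtools 1.13. No source used here gives the annotation or strand setting, so genes that overlap others or have close copies (Idi1, Acat2) are uncertain. No genome of that build was used, and RefSeq windows of GRCm38.p6 serve only to show sequence.

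Counts were fitted with edgeR 4.0.16 in R 4.3.3: TMM scaling, filterByExpr with a minimum count of 10, group means, quasi-likelihood F tests, and Benjamini-Hochberg adjustment over all genes tested at 0.05. Each generation of a tissue had its own fit (F1, 9 libraries; F2, 18 libraries), with 1 of 12 unexposed libraries for the tissues, and joint fits of both tissues for the difference in response. Log2 CPM used a prior count of 2, and CPM shown is on 1 TMM scale over 54 libraries. Correlations used 100000 permutations. Replicates differed beyond counting error (lowest chi-square per degree of freedom 7.43).

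Values in every library of the groups compared are given for the gene with the lowest p in each comparison with a control and for the 2 largest tissue differences each way, and, in at least 1 comparison, for Hmgcs1, Sqle, Cyp51, Scarb1, Insig1 and Srebf2. The members, lists and this rule were chosen with earlier results of these data known. Some genes of the pathway are not reported here. Same-letter libraries were checked for pairing and letters were taken as names. On simulated data the fits recovered 26%, 80%, 59% and 54% of genes changed 2-fold in F1 testis, F2 testis, F1 ovary and F2 ovary, run on 19025, 19379, 17896 and 17400 genes. Alternatives were RLE size factors, no filter, a block for the replicate letter, DESeq2 1.42.0, other sets of libraries in the fit, and leaving out each library; the fits without F1 testis dose 2 B and C were added after the data were seen.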

Additional observations from a re-analysis of the deposited data

How the results depend on the processing

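RLE size factors moved the median of the 30 genes between the tissues to -0.62 in F1 and -1.04 in F2, and DESeq2 gave -0.62 and -1.04; elsewhere RLE moved the median of all genes by at most 0.07. DESeq2 called 4 of the 30 genes in the biparental dose 2 difference between tissues and 2 in F2 ovary biparental dose 2, where edgeR called 0. Leaving out single libraries moved the F1 tissue median between -1.03 and -0.75, and the medians of the response difference between 0.073 and 0.29 for maternal dose 1, 0.16 and 0.30 for paternal dose 1, and 0.33 and 0.52 for biparental dose 2. Maternal against paternal medians ran from -0.081 to 0.027 for dose 1 in testis, from -0.031 to 0.10 for dose 1 in ovary and from -0.015 to 0.13 for dose 2 in ovary. Without F2 ovary maternal dose 1 A, 1 gene was called against the control cross (Insig2, -0.45, adjusted p = 0.0394 by edgeR, with 7.71% of all genes called) and 1 against paternal dose 1 (Srebf2, 0.53, adjusted p = 0.0467 by edgeR, with 6.12% of all genes called), against 0 without any other library. The causes were not tested. Of the medians and counts of called genes recomputed, 735 stayed within the spread or 1.5 times the count and 17 did not. Equal counts, 0 and 0 among them, were held as unchanged. The main fit called 0 of the 30 genes in every comparison except testis against ovary, so many of the 735 are 0 against 0. Of the counts at an unadjusted p and the changes of single genes, 969 stayed, 144 did not and 2 newly passed the test; no direction of a called value reversed. The replicate letters do not pair the libraries by the labels, and all 3 same-letter correlations were above 0.1 in 1 of 20 comparisons; with the letter as a replicate block 26 of the 30 genes were called between tissues in F1 (84.9% of all genes), 29 in F2 (86.2%), and 0 in every exposure comparison. Simulated 2-fold changes were recovered in 26% of genes in F1 testis, 59% in F1 ovary, 54% in F2 ovary and 80% in F2 testis, and smaller changes were not simulated, so a gene not called is not shown to be unchanged.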
